A study of Mus musculus with 12 samples.

Results

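CD69 is a surface protein that medullary CD4 single positive thymocytes carry after positive selection and lose before they leave the thymus, and the comparison described here asks which mRNAs differed between CD4 single positive thymocytes sorted without it (CD69-) and with it (CD69+). It takes in 12 of the 12 arrays of the series. The CD69+ group holds 6 arrays, 3 of the subset SP1 (Qa-2-6C10+CD69+) and 3 of SP2 (Qa-2-6C10-CD69+). The CD69- group holds 6 arrays, 3 of SP3 (Qa-2-6C10-CD69-) and 3 of SP4 (Qa-2+6C10-CD69-). Arrays were put in a group by the CD69 phenotype in their labels, and each subset had the same weight in its group. All cells came from the thymus of untreated C57BL/6 mice with no named genetic change, aged 6 to 8 weeks, and the thymi were pooled before the sort. Each subset was prepared independently 3 times, the cells were CD4+CD8-CD25-NK1.1-, and their total RNA was read on 1 Affymetrix mouse 430 2.0 array a preparation. The gate did not remove CD44hi mature T cells that had come back to the thymus from the periphery, which carry Qa-2 and can therefore sit in SP4. Only CD69+ cells included a 6C10+ subset and only CD69- cells a Qa-2+ subset, so a difference by CD69 cannot be told apart from one by these 2 markers except where SP2 and SP3, both 6C10-Qa-2-, are read side by side.

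CD69 binds the sphingosine 1-phosphate receptor S1PR1 and takes it off the cell surface, which holds thymocytes in the tissue. As single positive cells mature in the medulla, T cell receptor (TCR) signals from selection wane, CD69 is lost, and the transcription factor KLF2, itself a target of FOXO1, turns on S1pr1 and other genes of circulating naive T cells. The medulla also holds small numbers of other αβ T cells, among them natural killer T (NKT) cells, which depend on PLZF (Zbtb16), and regulatory T cells, which depend on Foxp3.

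Values are linear intensities that the authors had normalized between arrays, and differences are on the log2(intensity + 16) scale, CD69- minus CD69+, so that a positive value means higher in CD69-. Array medians lay between 30.5 and 32.8. The replicate number parted the arrays more than the subset did: the first principal component, with 56.8%, parted the 4 arrays of replicate 3 from the other 8, and arrays of the same number deviated together from their subset means (r between 0.279 and 0.883). The comparison was therefore fitted with limma without and with the replicate number as a block. A change is called at an adjusted p under 0.05 without the block, and the value with the block is given where it differs in its call. Of 9 measured T cell markers 8 lay below 0 with a median of -0.24, 0 were called without the block, and 3 (Cd5, Cd2 and Cd247) were lower with it. Cd3e, a chain of the TCR complex, had a lowest, median and highest intensity of 1019, 1267 and 1323 on the CD69+ arrays and of 1030, 1175 and 1282 on the CD69- arrays, and Cd4 ran from 541 to 958 (median 788) on the CD69+ arrays and from 423 to 1027 (median 629) on the CD69- arrays. In these bulk samples, fewer cells of a type and less RNA per cell cannot be told apart.

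For the transcript of the sort marker itself, no difference passed the test. Cd69 ran from 473 to 1112 (median 861) on the CD69+ arrays and from 580.4 to 979.7 (median 636) on the CD69- arrays. The log2 fold change was -0.16 ± 0.23 (SE, adjusted p = 1), and its differences within replicate numbers 1, 2 and 3 were -0.093, -0.80 and 0.43. The CD69- and CD69+ arrays overlapped, and 1 of the 3 replicate numbers had the higher level in the CD69- subsets. A probe set shared by H2-Q7 and H2-Q9, of the family that encodes Qa-2, ran from 180 to 742 on the CD69+ arrays and from 526 to 2561 on the CD69- arrays, with means of 625 ± 139.7 in SP3 and 2201 ± 327 in SP4 (SD, n = 3). Its SP4 vs SP3 log2 fold change was 1.80 (adjusted p = 0.142, and 0.0032 with the block), in the direction of the sort.

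Most probe sets that passed the test were higher in the CD69- cells. With a fold over 2 and an adjusted p under 0.05, 83 of 45037 probe sets (0.184%) were higher in the CD69- subsets and 20 (0.0444%) were lower. The 83 probe sets name 52 genes, with 12 that name no single gene, and the 20 name 14 genes, with 1 that names no single gene. All of these probe sets were also called with the block, which gave 106 higher and 30 lower. With 18193 genes each read by the brightest of their probe sets and called at any fold, 119 genes (0.654%) were higher and 39 (0.214%) lower, and with the block these were 498 (2.74%) and 300 (1.65%). The median difference over all genes was -0.0043, and 47.3% of all genes lay above 0. These shares of all genes are the ones to set beside the counts of list members that follow for CD69- against CD69+. The count of higher probe sets fell to 54 without SP3 replicate 2, and that of lower ones to 13 without SP2 replicate 2. Fits without 1 array, here and for the single genes below, had no block unless it is named. When the 4 arrays of replicate 1 or of replicate 2 were left out, 3 and 0 probe sets were higher and 0 and 0 lower without the block, against 137 and 102 higher and 30 and 28 lower with it.

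Of the 50 genes called higher with a fold over 2, 33 had all 6 CD69- arrays above all 6 CD69+ arrays, a pattern that 107 of all genes (0.588%) showed, and all 50 were higher in 3 of 3 replicate numbers. Of the 12 genes called lower, 9 had all CD69- arrays below all CD69+ arrays, as 86 of all genes (0.473%) did, and all 12 were lower in 3 of 3 replicate numbers. These counts rest on the comparison that called the genes and are given as a description.

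Il18r1, a chain of the interleukin 18 receptor, had the largest fold with the offset of 16, while with an offset of 1 Il18r1 (2.83) and Il4 (2.82) were level. It ran from 16.6 to 75.8 (median 45.6) on the CD69+ arrays and from 101 to 777 (median 312) on the CD69- arrays. This was a log2 difference of 2.45 ± 0.26 (SE, adjusted p = 0.00101). Rflnb, which encodes the filamin-binding protein refilin B, ran from 34 to 63.8 (median 55) on the CD69+ arrays and from 140.5 to 532 (median 290) on the CD69- arrays. On the log2 scale the difference was 2.12 ± 0.15 (SE, adjusted p = 0.0002). For both genes every CD69- array read above every CD69+ array, and the SP4 arrays read above the SP3 arrays. St8sia6, a sialyltransferase, rose by 1.78 ± 0.16 (SE, adjusted p = 0.000443) on the log2 scale, and its levels were 87.4 ± 28.5 for SP1, 196 ± 14.9 for SP2, 336 ± 58.7 for SP3 and 703 ± 95 for SP4 (SD, n = 3), so that it stepped up at each subset. Tlr1, a Toll-like receptor, rose by 1.70 ± 0.12 (SE, adjusted p = 0.0002) from a median of 28.9 to 141. The others among the 12 genes of largest fold were S1pr1, Il4, Zbtb16, the LIM domain gene Pdlim4 (1.77), Itgae, the lysosomal arylsulfatase gene Arsb (1.69), the interferon-induced Ifit family gene Ifit1bl1 (1.65) and Tmem71 (1.65).

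Among the 12 genes called lower, Chl1, a cell adhesion molecule of the L1 family, fell most. It ran from 168 to 384 (median 246) on the CD69+ arrays and from 31.8 to 126 (median 57.6) on the CD69- arrays. Its log2 fold change was -1.81 ± 0.20 (SE, adjusted p = 0.00159). F13a1, the A chain of coagulation factor XIII, ran from 258 to 578 (median 364) on the CD69+ arrays and from 52.7 to 270.2 (median 122) on the CD69- arrays, and Asb2, a substrate receptor of a ubiquitin ligase, ran from 96.8 to 194 (median 139) on the CD69+ arrays and from 26.1 to 58.6 (median 36.8) on the CD69- arrays. Their log2 fold changes were -1.54 ± 0.22 (SE, adjusted p = 0.0074) and -1.51 ± 0.15 (SE, adjusted p = 0.000715). The groups did not overlap for Chl1 and Asb2, while the highest CD69- array for F13a1, an SP3 array, lay inside the CD69+ range. Ccr9, the receptor for the thymic chemokine CCL25, fell by 1.26 on the log2 scale (adjusted p = 0.0276) with means of 1839 ± 338 for SP1, 1346 ± 501 for SP2, 1273 ± 396 for SP3 and 324 ± 92.2 for SP4 (SD, n = 3), so that its largest drop lay at SP4. It also read lower in SP2 than in SP1 within each replicate number. By qRT-PCR the study reports Ccr9 as already lower in SP2 and lowest in SP4. Any 1 of 9 arrays left out ended its call (adjusted p up to 0.0896), which held with the block (adjusted p = 8.57e-05). The ETS factor gene Etv5 (-1.09), the zinc finger genes Hivep3 (-1.08), Zfp821 (-1.10) and Zcchc12 (-1.47), C1qtnf12 (-1.32), which encodes a secreted C1q-like protein, the vesicle transport gene Sytl2 (-1.14), Lztfl1 (-1.08) and Tnfrsf9 made up the rest. The calls of Sytl2 and Lztfl1 ended without SP1 replicate 2 (adjusted p up to 0.0512 and 0.0563), and that of Lztfl1 also without SP2 replicate 2.

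**Figure D1:**
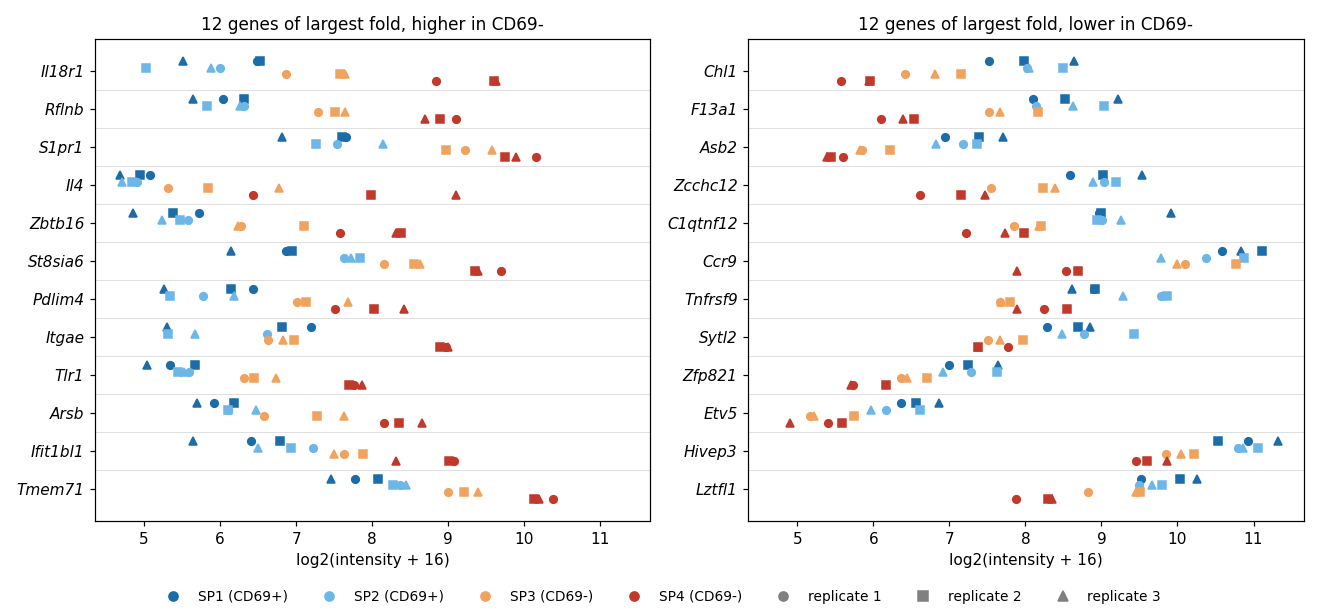
Log2(intensity + 16) on each of the 12 arrays (x axis) for the 12 genes of largest fold that were higher (left) and lower (right) in CD69- cells, 1 point per array, coloured by subset and shaped by replicate number. Il18r1, Rflnb and S1pr1 show every CD69- point to the right of every CD69+ point, and the SP4 points of Itgae lie far from those of SP3, which lie among the CD69+ points.

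Genes of egress and recirculation held, with the NKT genes, the most called members of the lists. Of 28 measured members, 8 were higher and 0 lower, against 0.654% and 0.214% of all genes, and with the block 11 were higher and 0 lower. The median difference of the list was 0.28 against -0.0043 over all genes, and 17 members were higher in 3 of 3 replicate numbers, where 15.8% of all genes were. S1pr1, the receptor through which thymocytes follow sphingosine 1-phosphate into the blood, ran from 96.4 to 268 (median 174) on the CD69+ arrays and from 486 to 1120 (median 794) on the CD69- arrays. This was a log2 fold change of 2.09 ± 0.20 (SE, adjusted p = 0.000575), and every CD69- array read above every CD69+ array. S1pr4, a related receptor, ran from 110.5 to 186 (median 142) on the CD69+ arrays and from 281 to 556 (median 358) on the CD69- arrays. The log2 fold change was 1.26 ± 0.12 (SE, adjusted p = 0.000554) with no overlap between the groups. Neither call ended with any 1 array left out (adjusted p up to 0.00365 and 0.00301).

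Klf2, the factor that drives S1pr1, ran from 283 to 939 (median 420.1) on the CD69+ arrays and from 786 to 1673 (median 1150) on the CD69- arrays, and 1 CD69+ array, of SP2, lay above the lowest CD69- array. Its log2 fold change was 1.33 ± 0.21 (SE, adjusted p = 0.0146), and the call ended without SP2 replicate 1 or SP3 replicate 2 (adjusted p up to 0.0558). Klf3, a repressor of the same family, rose by 1.39 ± 0.17 (SE, adjusted p = 0.00346) and ran from 163 to 294 (median 211) on the CD69+ arrays and from 411 to 877 (median 601) on the CD69- arrays. Foxo1, which acts upstream of Klf2, had a log2 fold change of 0.63 ± 0.20 (SE, adjusted p = 0.377, and 0.00272 with the replicate block) and differences within the replicate numbers of 0.60, 0.68 and 0.60. The integrin chain Itgb7, part of the gut homing receptor, rose by 1.03 ± 0.14 (SE, adjusted p = 0.00673), its partner Itga4 by 0.78 ± 0.13 (SE, adjusted p = 0.0238), and the adhesion receptor gene Adgre5 (CD97) by 0.87 ± 0.12 (SE, adjusted p = 0.00593). Itga4 lost its call with any 1 of 6 arrays left out (adjusted p up to 0.086). Itgae (CD103), the integrin chain that binds E-cadherin on epithelium, had the same direction, 1.73 ± 0.31 (SE, adjusted p = 0.0282), with means of 83.5 ± 54.7 for SP1, 47 ± 31.1 for SP2, 96.5 ± 13.6 for SP3 and 479.8 ± 20.1 for SP4 (SD, n = 3), and 9 of the 12 arrays could each end its call (adjusted p up to 0.097).

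Other homing genes did not pass the test without the block. Ccr7, the receptor that draws cells into the medulla and lymph nodes, ran from 1318 to 3082 (median 2209) on the CD69+ arrays and from 1505 to 2671 (median 2330) on the CD69- arrays, a difference of 0.015 ± 0.18 (SE, adjusted p = 1). Its level was not flat inside the groups. It ran from 1318 to 2284 in SP1, 2134 to 3082 in SP2, 1505 to 2497 in SP3 and 2217 to 2671 in SP4. Within each replicate number Ccr7 rose from SP1 to SP2, fell to SP3 and rose again to SP4. Cxcr4, whose ligand CXCL12 is made in the cortex, had 0.55 ± 0.21 (SE, adjusted p = 0.556, and 0.0191 with the replicate block), and its differences within the replicate numbers were 0.59, 0.63 and 0.44. Ccr4, a receptor of medullary chemokines, had -0.66 ± 0.31 (SE, adjusted p = 0.804, and 0.00299 with the replicate block), and Plxnd1, a semaphorin receptor of thymocytes, -0.67 ± 0.22 (SE, adjusted p = 0.395, and 0.00707 with the replicate block). With the block, both were lower and Cxcr4 higher. Over the 17 chemokine receptors, 2 were higher (Cxcr3, Ccr2) and 1 lower (Ccr9), with a list median of -0.0089.

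By the fit with the block, several egress genes already stood apart in SP3. In SP3 against the mean of SP1 and SP2, fitted with the block, 50 of all genes (0.275%) were higher and 44 (0.242%) lower, and without the block 2 and 1 were. Of the 28 egress genes, 6 were higher with the block and 0 lower, and without the block 0 were higher and 0 lower. S1pr1 stood at 1.76 on the log2 scale in SP3 (adjusted p = 0.00552 with the block) and added 0.67 from SP3 to SP4 (adjusted p = 0.319 with the block). The same pair of values was 1.14 (0.00552) and 0.39 (0.423) for Klf2, and 1.09 (0.00552) and 0.60 (0.104) for Klf3. Igfbp4, whose product binds insulin-like growth factors, followed them with means of 1013 ± 78.6 for SP1, 1959 ± 241 for SP2, 3230 ± 651 for SP3 and 4341 ± 296 for SP4 (SD, n = 3), at 1.17 in SP3 (adjusted p = 0.00183 with the block). Itgae, at 0.66 (0.57) in SP3 and 2.15 (0.0103) from SP3 to SP4, passed the test at the second step and not at the first.

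SP3 and SP2 share their Qa-2 and 6C10 phenotype, and set against SP2 alone fewer genes passed. With the block 20 of all genes (0.11%) were higher in SP3 and 31 (0.17%) lower, and without it 0 and 0, with 620 at an unadjusted p under 0.05. Of the 28 egress genes 3 were higher with the block: S1pr1 at 1.61 ± 0.28 (SE, adjusted p = 0.304, and 0.0303 with the block), Klf3 at 1.10 ± 0.24 (SE, adjusted p = 0.646, and 0.0167 with the block) and S1pr4 at 0.77 ± 0.17 (SE, adjusted p = 0.646, and 0.0408 with the block). Klf2 and Igfbp4 did not pass, at 0.73 ± 0.29 (SE, adjusted p = 1, and 0.12 with the block) and 0.70 ± 0.17 (SE, adjusted p = 0.73, and 0.0638 with the block). Igfbp4 stood 0.94 higher in SP2 than in SP1. Of the TCR response genes, 1 of 26 factors (Ikzf2) and 6 of 24 surface and signalling genes were lower in SP3 than in SP2 with the block, among them Tnfrsf9 at -1.93 ± 0.21 (SE, adjusted p = 0.053, and 0.000101 with the block). By this comparison 0 of 43 interferon and 0 of 27 NKT genes passed. With the block 3 of 24 double positive thymocyte markers and 2 of 17 CD8 lineage genes were higher in SP3. The list medians were 0.75 for the double positive markers, 0.17 for the CD8 lineage genes and 0.09 for the egress genes. The part of such cells in this comparison was not tested.

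The other genes of largest fold in SP3 against the CD69+ subsets, by the fit with the block, were Pdlim4 (1.42), Rflnb (1.42), St8sia6 (1.26), the synaptotagmin gene Syt13 (1.20), Gm11346 (1.18) and Zbtb16 (1.16) among the higher ones. The lower ones were Tnfrsf9 (-1.51), Chl1 (-1.33), Asb2 (-1.27), C1qtnf12 (-1.10), Nr4a3 (-1.07), Etv5 (-1.05), Sytl2 (-1.04) and the creatine kinase gene Ckb. Syt13 had means of 85.6 ± 46.3 for SP1, 27.7 ± 5.83 for SP2, 142 ± 69.7 for SP3 and 46.8 ± 15.8 for SP4 (SD, n = 3), and its SP4 vs SP3 difference was -1.25 (adjusted p = 0.0339 with the block). The summed intensity of the double positive thymocyte markers was also higher in SP1 (11590 to 18570) and SP3 (11420 to 24840) than in SP2 (9737 to 10090) and SP4 (7939 to 10220), and its part in the Syt13 values was not tested.

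**Figure D2:**
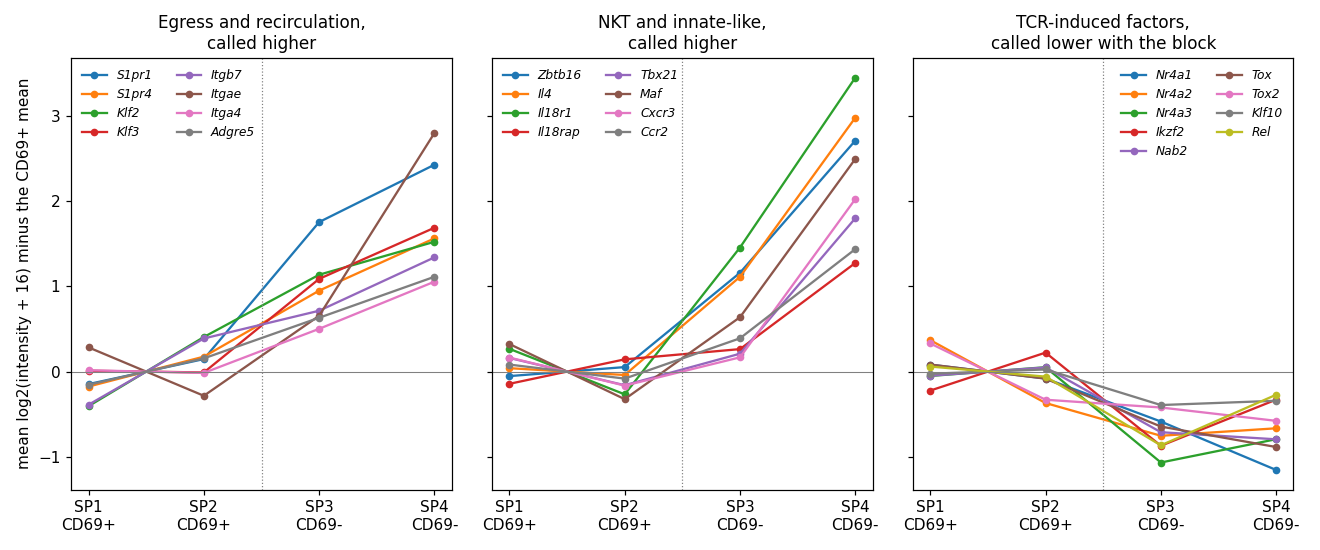
Subset means of log2(intensity + 16) minus the mean of the CD69+ subsets (y axis) over SP1 to SP4 (x axis, n = 3 arrays each), with 1 line per gene: called higher genes of egress and recirculation (left) and of NKT and innate-like T cells (middle), and TCR-induced factors called lower with the replicate block (right). S1pr1 is at 1.76 and Klf2 at 1.14 in SP3, whereas Cxcr3 is at 0.17 there and gains 1.86 in SP4.

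Some genes that TCR signals induce were lower in the CD69- cells by the test with the block, and few passed it without. Of 26 measured transcription factors of this kind, 0 were called without the block, while 9 were lower and 1 (Myc) higher with it. The 9 became 4, 6 and 4 without replicate number 1, 2 and 3. The median of the 26 was -0.036, with 12 above 0 and 14 below. In 3 of 3 replicate numbers 11 were lower, where 18.2% of all genes were, and 5 were higher, where 15.8% were. With the block, SP3 alone as CD69- gave 3 lower and 0 higher, and SP4 alone gave 6 lower and 4 higher. Nr4a1, an orphan nuclear receptor gene used as a reporter of TCR signal strength, ran from 2183 to 3688 (median 2472) on the CD69+ arrays and from 877 to 2547 (median 1468) on the CD69- arrays. This was a log2 difference of -0.87 ± 0.21 (SE, adjusted p = 0.123, and 0.000316 with the replicate block). Its relative Nr4a3 ran from 534 to 2835 (median 642) on the CD69+ arrays and from 183 to 2244 (median 270.3) on the CD69- arrays. On the log2 scale the difference was -0.93 ± 0.76 (SE, adjusted p = 1, and 0.00707 with the replicate block), and Nr4a2 had -0.71 ± 0.64 (SE, adjusted p = 1, and 0.00269 with the replicate block). For Nr4a2 and Nr4a3 the arrays of replicate 3 read far above the others in all subsets, so the groups overlapped while the differences within the replicate numbers kept 1 sign, at -0.61, -1.08 and -0.44 for Nr4a2 and -1.23, -1.30 and -0.26 for Nr4a3. Tox, a factor needed for CD4 T cell development, had differences of -0.51, -0.94 and -0.85 (adjusted p = 1, and 0.00117 with the block), Nab2, a cofactor of EGR proteins, -0.69, -0.52 and -1.04 (0.226, and 0.0103), and Ikzf2 (Helios) -0.65, -0.33 and -0.82 (0.127, and 0.00394).

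Of 24 measured surface and signalling genes of the TCR response, 2 were lower and 1 higher without the block, and 8 lower and 2 higher with it, with a median of -0.21. The 8 became 3, 7 and 4 without replicate number 1, 2 and 3. Tnfrsf9 (4-1BB), a costimulatory receptor that TCR signals induce, ran from 377 to 918 (median 537) on the CD69+ arrays and from 188 to 359 (median 214) on the CD69- arrays. Every CD69- array read below every CD69+ array, the log2 fold change was -1.25 ± 0.15 (SE, adjusted p = 0.00267), and no array left out ended the call (adjusted p up to 0.0136). Itm2a, a membrane protein of thymocytes after positive selection, fell by 0.84 on the log2 scale (SE 0.11, adjusted p = 0.00564) and ran from 6211 to 9302 (median 8017) on the CD69+ arrays and from 3335 to 6299 (median 4460) on the CD69- arrays. Tnfsf11 (RANKL), through which thymocytes drive medullary epithelium, ran from 327 to 1052 (median 401) on the CD69+ arrays and from 124 to 666 (median 212) on the CD69- arrays and differed by -1.14, -0.86 and -0.68 within the replicate numbers (adjusted p = 0.901, and 0.000955 with the block). Tnfrsf4 (OX40), Tnfrsf18 (GITR) and Cd5, a receptor whose level follows TCR signalling, had log2 fold changes of -0.68 ± 0.42 (SE, adjusted p = 1, and 0.0357 with the replicate block), -0.58 ± 0.34 (SE, adjusted p = 0.97, and 0.0299 with the replicate block) and -0.43 ± 0.13 (SE, adjusted p = 0.286, and 0.0169 with the replicate block). The member called higher was Ms4a4b, a tetraspan protein abundant in mature T cells, at 1.27 ± 0.22 (SE, adjusted p = 0.027), and 8 of the 12 arrays could each end its call (adjusted p up to 0.0805).

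Feedback regulators of the TCR pathway lay on both sides of 0. Of 29 measured, 1 was called, Dusp5, a phosphatase of ERK, which ran from 1639 to 2419 (median 1938) on the CD69+ arrays and from 655 to 1324 (median 1020) on the CD69- arrays with no overlap and fell by 0.93 on the log2 scale (adjusted p = 0.0282, up to 0.0952 with 1 of 8 arrays left out). With the block 4 were lower and 5 higher, the latter including the diacylglycerol kinase gene Dgka (0.62, adjusted p = 0.00408 with the block) and the phosphatase gene Ptpn22 (0.56, adjusted p = 0.0104 with the block). The 19 measured CD3 chains and proximal kinases had 0 calls without the block and a median of -0.051.

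In SP3 against the CD69+ subsets, with the block, 3 of the 26 factors and 5 of the 24 surface and signalling genes were lower. Tnfrsf9 stood at -1.51 in SP3 (adjusted p = 0.000205 with the block), and its SP4 vs SP3 difference was 0.52 (adjusted p = 0.0945 with the block). Ikzf2 read -0.87 (0.0084) and 0.54 (0.0975) for the same 2 steps, Tnfsf11 -0.96 (0.012) and 0.14 (0.797), and Nr4a3 -1.07 (0.0479) and 0.27 (0.717). For Nr4a1 the values were -0.59 (0.0652) and -0.57 (0.0843), of which neither passed the test. Bcl2l11 (BIM), a pro-apoptotic gene of negative selection, ran from 1223 to 3475 (median 1657) on the CD69+ arrays and from 505 to 2168 (median 605) on the CD69- arrays and differed by -1.27, -1.41 and -0.48 within the replicate numbers (adjusted p = 0.702, and 0.00297 with the block). Its list of 28 apoptosis regulators had 0 calls without the block and a median of 0.027.

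**Figure D3:**
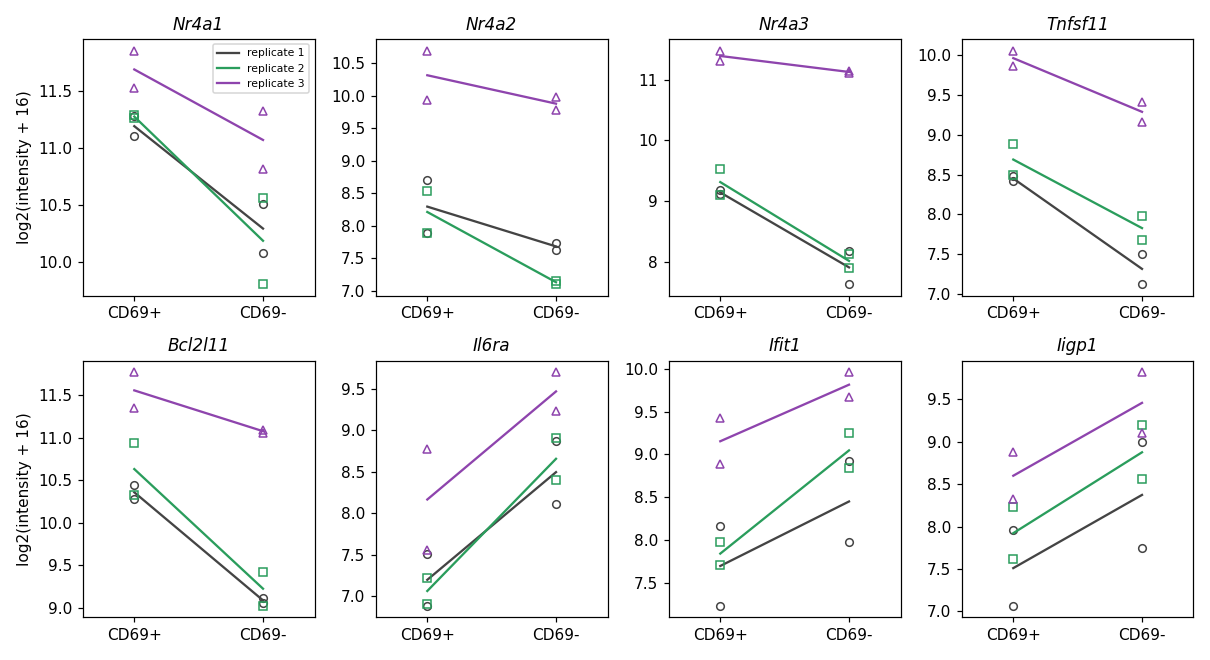
Log2(intensity + 16) of 8 genes (y axis, 1 scale per panel) on CD69+ and CD69- arrays (x axis). Points are arrays, shaped and coloured by replicate number, and lines join the means of the CD69+ and CD69- arrays of 1 number. Replicate 3 lies far above the others for Nr4a2, Nr4a3 and Bcl2l11, and all 3 lines fall for Nr4a1, Nr4a2, Nr4a3, Tnfsf11 and Bcl2l11 and climb for Il6ra, Ifit1 and Iigp1.

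Of 22 measured genes of the NF-κB pathway, 0 were called without the block, with a median of 0.047. With the block 17 were not called, the subunit gene Rela (0.039, adjusted p = 0.894 with the block) among them, and the 3 that were lower were the subunit genes Rel (-0.57, adjusted p = 0.0391 with the block), Nfkb2 (-0.39, 0.0127) and Relb (-0.38, 0.0338). The 2 that were higher with the block were the atypical inhibitor gene Bcl3 (0.56, 0.0297) and the adaptor gene Traf1 (0.76, 0.000625). Nfkb2 ran from 183 to 248 (median 200) on the CD69+ arrays and from 121 to 204 (median 152) on the CD69- arrays, and its differences within the replicate numbers were -0.51, -0.34 and -0.33. Nfkb2 and Relb, which pair in the non-canonical branch, were lower in SP3 than in the mean of SP1 and SP2, at -0.53 (adjusted p = 0.0345 with the block) and -0.59 (0.045), and did not pass the test against SP2 alone, at -0.49 (0.109) and -0.63 (0.0708). Malt1, which the study names, had 0.37 ± 0.26 (SE, adjusted p = 1).

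The interferon response list holds genes that infected or interferon-treated cells switch on, and also the interferon receptor gene Ifngr2. Of its measured genes, 39 of 43 lay above 0, where 47.3% of all genes did. Of the 43, 2 were called higher and 0 lower, against 0.654% and 0.214% of all genes. With the block 19 were higher and 1 (Ifngr2) lower, against 2.74% and 1.65% of all genes. The list median was 0.38 against -0.0043 over all genes, and 34 were higher in 3 of 3 replicate numbers. The 19 higher with the block became 7, 14 and 6 without replicate number 1, 2 and 3. With SP3 alone as CD69- there was 1, and with SP4 alone 29. Ifit3, an antiviral protein of the IFIT family, ran from 53.3 to 179 (median 127) on the CD69+ arrays and from 192 to 754 (median 344) on the CD69- arrays with no overlap. Its log2 fold change was 1.50 ± 0.24 (SE, adjusted p = 0.0177), and its call ended without SP2 replicate 2 or SP3 replicate 2 (adjusted p up to 0.0614). Oas1a, a 2',5'-oligoadenylate synthetase gene, ran from 148 to 226 (median 202) on the CD69+ arrays and from 244 to 520.3 (median 348) on the CD69- arrays, also with no overlap. The log2 fold change was 0.82 ± 0.11 (SE, adjusted p = 0.0073). The GTPase genes Iigp1 and Irgm2 and Ifit1 had overlapping groups, and within the replicate numbers they differed by 0.86, 0.95 and 0.86 (adjusted p = 0.371, and 0.000223 with the block), 0.66, 0.93 and 0.72 (1, and 0.000266) and 0.76, 1.21 and 0.66 (0.714, and 0.00182).

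The promoters of 3 interferon genes that were higher, Ifit1 with the block only, are shown with that of Nfkb2, to let the letters of their motifs be read. They run from 250 bases before to 50 bases after a RefSeq start (GRCm38.p6), 5' to 3'. Ifit3 lies at chr19:34583279-34583578 on the plus strand, Ifit1 at chr19:34640639-34640938 on the plus strand, Oas1a at chr5:120907476-120907775 on the minus strand, and the Nfkb2 start shown, the one of 3 with the most matches, at chr19:46305445-46305744 on the plus strand. Capitals mark the interferon-stimulated response element (ISRE) core on either strand in the first 3, and the κB motif in Nfkb2, where the motifs were searched with 2 free bases in the middle.
Ifit3: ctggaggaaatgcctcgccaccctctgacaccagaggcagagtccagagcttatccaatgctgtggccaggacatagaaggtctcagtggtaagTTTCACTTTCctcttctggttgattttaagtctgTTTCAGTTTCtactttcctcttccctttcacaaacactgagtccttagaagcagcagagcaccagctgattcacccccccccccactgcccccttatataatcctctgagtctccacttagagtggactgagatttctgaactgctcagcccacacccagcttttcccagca
Ifit1: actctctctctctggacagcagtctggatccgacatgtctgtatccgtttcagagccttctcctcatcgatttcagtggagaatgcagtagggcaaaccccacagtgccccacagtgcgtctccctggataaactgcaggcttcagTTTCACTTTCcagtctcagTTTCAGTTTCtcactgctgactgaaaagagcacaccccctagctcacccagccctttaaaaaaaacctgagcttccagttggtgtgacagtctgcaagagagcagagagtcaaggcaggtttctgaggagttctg
Oas1a: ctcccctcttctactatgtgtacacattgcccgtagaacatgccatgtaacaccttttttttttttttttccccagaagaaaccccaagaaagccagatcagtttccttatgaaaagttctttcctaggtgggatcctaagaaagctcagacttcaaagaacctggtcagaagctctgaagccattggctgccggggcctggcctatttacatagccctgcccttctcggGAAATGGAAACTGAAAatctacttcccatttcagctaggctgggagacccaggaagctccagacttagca
Nfkb2: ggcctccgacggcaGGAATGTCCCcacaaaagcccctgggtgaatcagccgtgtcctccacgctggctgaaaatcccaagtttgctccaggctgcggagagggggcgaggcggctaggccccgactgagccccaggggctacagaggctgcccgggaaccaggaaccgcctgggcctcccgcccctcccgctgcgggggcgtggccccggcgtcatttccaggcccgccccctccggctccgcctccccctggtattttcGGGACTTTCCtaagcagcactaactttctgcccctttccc
Ifit3, Ifit1 and Oas1a each held 2 ISRE matches, which overlap in Oas1a, and the Nfkb2 window held 2 κB matches. Of the 32 measured interferon genes with a promoter in the table, 16 held the ISRE letters in at least 1 promoter, against 3.99% of 27025 genes. The κB letters stood in promoters of 3 of 18 NF-κB pathway genes, 4 of 32 interferon genes, 0 of 21 egress genes and 1.63% of all genes. Other motifs were searched on both strands in the same lists. AP-1 (TGANTCA) stood in 8 of 32 interferon, 5 of 18 NF-κB and 1 of 21 egress genes (8.97% of all genes). KLF (GGGCGTGG) stood in 4 of 21 egress, 5 of 32 interferon, 3 of 18 NF-κB and 3 of 17 TCR-induced factor genes (6.06%). EGR (GCGNGGGCG) stood in 6 of 21 egress, 3 of 32 interferon, 1 of 18 NF-κB and 4 of 17 TCR-induced factor genes (6.27%). FOXO (GTAAACA) stood in 0 of 21 egress genes (4.05%), which says only that these letters are not in these windows. A match is a description of these letters and not of a bound site.

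Genes of NKT and innate-like T cells had the largest list median, 0.77. Of 27 measured, 8 were higher and 0 lower, against 0.654% and 0.214% of all genes. With the block 14 were higher and 1 (Slamf1) lower, against 2.74% and 1.65% of all genes. Zbtb16, which encodes PLZF, ran from 12.9 to 36.9 (median 27.2) on the CD69+ arrays and from 59.1 to 317 (median 148) on the CD69- arrays. This was a log2 difference of 1.94 ± 0.21 (SE, adjusted p = 0.00133) with no overlap. Il4 ran from 9.78 to 17.7 (median 13.3) on the CD69+ arrays and from 23.6 to 536 (median 82) on the CD69- arrays, below the array median on every CD69+ array, a log2 fold change of 2.05 ± 0.38 (SE, adjusted p = 0.0355), and 9 of the 12 arrays could each end its call (adjusted p up to 0.1). Maf, a factor for interleukin 4 and 10, had 1.57 ± 0.31 (SE, adjusted p = 0.0481), with 10 arrays that could end the call (adjusted p up to 0.146), and Tbx21 (T-bet) 1.01 ± 0.13 (SE, adjusted p = 0.00511). The chemokine receptor genes Cxcr3 and Ccr2 had 1.10 ± 0.18 (SE, adjusted p = 0.0207) and 0.91 ± 0.13 (SE, adjusted p = 0.00673), and Il18rap, the partner of Il18r1, 0.77 ± 0.12 (SE, adjusted p = 0.014). Cxcr3 lost its call with any 1 of 6 arrays left out (adjusted p up to 0.0715), and Il18rap without SP2 replicate 1 or SP3 replicate 2 (up to 0.0508).

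Many of these genes differed between the CD69- subsets. With the block, 221 of all genes (1.21%) were higher in SP4 than in SP3 and 51 (0.28%) lower, and 14 of the 27 NKT list members were higher. Cxcr3 means were 55.7 ± 16.2 for SP1, 40.7 ± 11.7 for SP2, 54.8 ± 7.77 for SP3 and 249 ± 82 for SP4 (SD, n = 3), at 0.17 in SP3 (adjusted p = 0.813 with the block) and 1.86 from SP3 to SP4 (0.000368). Tbx21 read 0.21 (0.633) and 1.59 (0.000368) for these steps, and Maf 0.64 (0.148) and 1.86 (0.000632). Zbtb16 differed already in SP3, at 1.16 (0.0391), and again in SP4, by 1.55 (0.00782). Beside these values, a probe set shared by Klrb1b and Klrb1c, the NK1.1 gene whose product the gate excluded, had means of 26 ± 4.05 in SP3 and 61.2 ± 31.2 in SP4 (SD, n = 3). The SP4 vs SP3 log2 fold change of this probe set was 0.80 (adjusted p = 0.584, and 0.0284 with the block). The summed intensity of the NKT list ran from 4143 to 6389 on the CD69+ arrays, from 4798 to 6779 on the SP3 arrays and from 7606 to 11170 on the SP4 arrays. The part of such cells in the result was not tested.

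Activated and memory T cell genes were read as a further list. Of 22 measured, 4 were higher and 0 lower, against 0.654% and 0.214% of all genes, with a median of 0.58. With the block 7 were higher, against 2.74% of all genes. That count was 3 without replicate number 3, 0 with SP3 alone as CD69- and 9 with SP4 alone. Ahnak, a large scaffold protein, had 1.49 ± 0.19 (SE, adjusted p = 0.00415) and means of 60 ± 22.1 for SP1, 48 ± 6.09 for SP2, 97.7 ± 37.3 for SP3 and 322 ± 39.8 for SP4 (SD, n = 3). S100a6, a calcium-binding protein of memory cells, had 1.54 ± 0.28 (SE, adjusted p = 0.0324), with 10 arrays that could end the call (adjusted p up to 0.112). Cd44, the marker of the returning cells that the gate kept, did not pass the test by CD69, at 0.11 ± 0.14 (SE, adjusted p = 1), with means of 241 ± 27.8 for SP1, 283 ± 58.4 for SP2, 185 ± 33.4 for SP3 and 424 ± 36 for SP4 (SD, n = 3), and rose from SP3 to SP4 by 1.14 (adjusted p = 0.0484). The summed intensity of the list ran from 9435 to 13570 on the CD69+ arrays, from 12700 to 14000 in SP3 and from 14250 to 20550 in SP4, and the part of returning cells in the result was not tested.

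The 50 genes called higher with a fold over 2 each read higher in SP4 than in SP3, which describes genes whose pooled call SP4 helped to make and is no separate test. The median SP4 vs SP3 difference of these 50 genes was 1.04, and 29 passed the SP4 vs SP3 test with the block. Of the 12 genes called lower, 11 were lower in SP4 than in SP3, with a median of -0.56, and 5 passed with the block. Tnfrsf9 was the exception. Between SP1 and SP2, the 2 CD69+ subsets, 0 genes were called without the block (1237 probe sets had an unadjusted p under 0.05) and 1 with it, and the 50 higher genes had a median SP2 vs SP1 difference of 0.16. With a fold over 2, 4 probe sets were higher and 2 lower when SP3 stood for CD69-, and 216 and 51 when SP4 did.

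Cytokine receptors beyond Il18r1 and Il18rap included Il6ra, which pairs with gp130, and Il2rb, the chain shared by interleukins 2 and 15. Of 26 measured, 3 were higher and 0 lower, with a median of 0.092, and 10 higher and 1 lower with the block. Il6ra ran from 102 to 424 (median 149) on the CD69+ arrays and from 262 to 817 (median 459.7) on the CD69- arrays and differed by 1.30, 1.60 and 1.31 within the replicate numbers (adjusted p = 0.0767, and 3.57e-05 with the block). Il17ra ran from 612 to 819 (median 698) on the CD69+ arrays and from 886 to 1300 (median 1108) on the CD69- arrays with no overlap. On the log2 scale the difference was 0.62 ± 0.10 (SE, adjusted p = 0.0165), and 5 arrays could each end its call (adjusted p up to 0.0614). Il2rb had 0.64 ± 0.14 (SE, adjusted p = 0.0918, and 0.00108 with the replicate block), with SP4 1.38 above SP3 (SP4 vs SP3 adjusted p = 0.03). Socs3, a feedback inhibitor of cytokine signals, rose by 0.93 ± 0.12 (SE, adjusted p = 0.00511). Il2ra (CD25), on which the gate selected, had 0.039 ± 0.19 (SE, adjusted p = 1).

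Costimulatory genes moved in both directions, with 1 of 28 higher and 1 lower. Tnfrsf25 (DR3) ran from 67.3 to 117 (median 91.4) on the CD69+ arrays and from 128 to 299 (median 184) on the CD69- arrays with no overlap. Its log2 fold change was 0.91 ± 0.15 (SE, adjusted p = 0.0211), and 8 arrays could each end its call (adjusted p up to 0.07). Dtx1, an E3 ligase gene of the Notch pathway that the study names, had 0.91 ± 0.18 (SE, adjusted p = 0.0478), with 11 arrays that could end the call (adjusted p up to 0.146). Icos, Ctla4 and Pdcd1 did not pass the test, at 0.38 ± 0.27 (SE, adjusted p = 1), 0.53 ± 0.29 (SE, adjusted p = 0.94) and 0.40 ± 0.17 (SE, adjusted p = 0.712). The CD69- subsets differed from each other for Icos and Ctla4. Icos ran from 693.5 to 1890 in SP3 and from 1677 to 2851 in SP4, and Ctla4 from 217.4 to 587.1 and from 524.6 to 1198. Both were higher in SP4 than in SP3 within each replicate number. Tnfsf8 (CD30 ligand) had 0.67 ± 0.15 (SE, adjusted p = 0.103, and 0.00169 with the replicate block). Of the other genes the study names, Ctss (0.72 ± 0.14, adjusted p = 0.0529, and 0.00691 with the block), Pik3cd (0.68 ± 0.17, adjusted p = 0.168, and 0.00714 with the block), Ppp3cc (0.50 ± 0.12, adjusted p = 0.116, and 0.00561 with the block) and Tgfbr2 (0.53 ± 0.15, adjusted p = 0.25, and 0.0425 with the block) passed only with the block.

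Among 26 factors of quiescence and T cell identity, 1 was called higher, Klf2, with a list median of 0.094, and with the block 6 were higher and 2 lower. Slfn1 and Slfn2, Schlafen genes that hold T cells in quiescence, had 0.91 ± 0.21 (SE, adjusted p = 0.103, and 0.0153 with the replicate block) and 0.51 ± 0.16 (SE, adjusted p = 0.347, and 0.0287 with the replicate block), and the antiproliferative gene Btg2 and the glucocorticoid-induced gene Tsc22d3 had 0.35 ± 0.13 (SE, adjusted p = 0.515, and 0.0267 with the replicate block) and 0.46 ± 0.14 (SE, adjusted p = 0.329, and 0.0228 with the replicate block). The 2 that were lower with the block were Lef1, a partner of TCF1 in early T cells, at -0.46 ± 0.13 (SE, adjusted p = 0.246, and 0.037 with the replicate block), and Gata3, a factor of the CD4 lineage, at -0.32 ± 0.13 (SE, adjusted p = 0.639, and 0.045 with the replicate block).

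Of 19 measured MHC class I and antigen presentation genes, 0 were called without the block, with a median of 0.17, and 4 were higher with the block, among them H2-K1 (0.45 ± 0.14, adjusted p = 0.35, and 0.00698 with the block) and H2-D1 (0.57 ± 0.17, adjusted p = 0.289, and 0.002 with the block). Of 8 GIMAP GTPases, which support the survival of naive T cells, all lay above 0, where 47.3% of all genes did. The 1 that was called was Gimap3, at 0.95 ± 0.16 (SE, adjusted p = 0.0217), with 8 arrays that could end its call (adjusted p up to 0.0774). Among 15 glycolysis genes 11 lay below 0, the median was -0.17, and 1 was called lower, Eno3, at -0.72 ± 0.13 (SE, adjusted p = 0.0296), with 11 arrays that could end its call (adjusted p up to 0.101). The glucose transporter gene Slc2a3 (-0.63 ± 0.21, adjusted p = 0.434, and 0.00782 with the block) and Pkm (-0.43 ± 0.22, adjusted p = 0.884, and 0.00727 with the block) were lower with the block. Cell cycle (34 genes), cholesterol (20), ribosomal protein (23) and housekeeping (11) lists had 0 calls without the block and medians of 0.19, -0.071, 0.082 and -0.034, with 1, 2, 0 and 1 called with it.

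**Figure D4:**
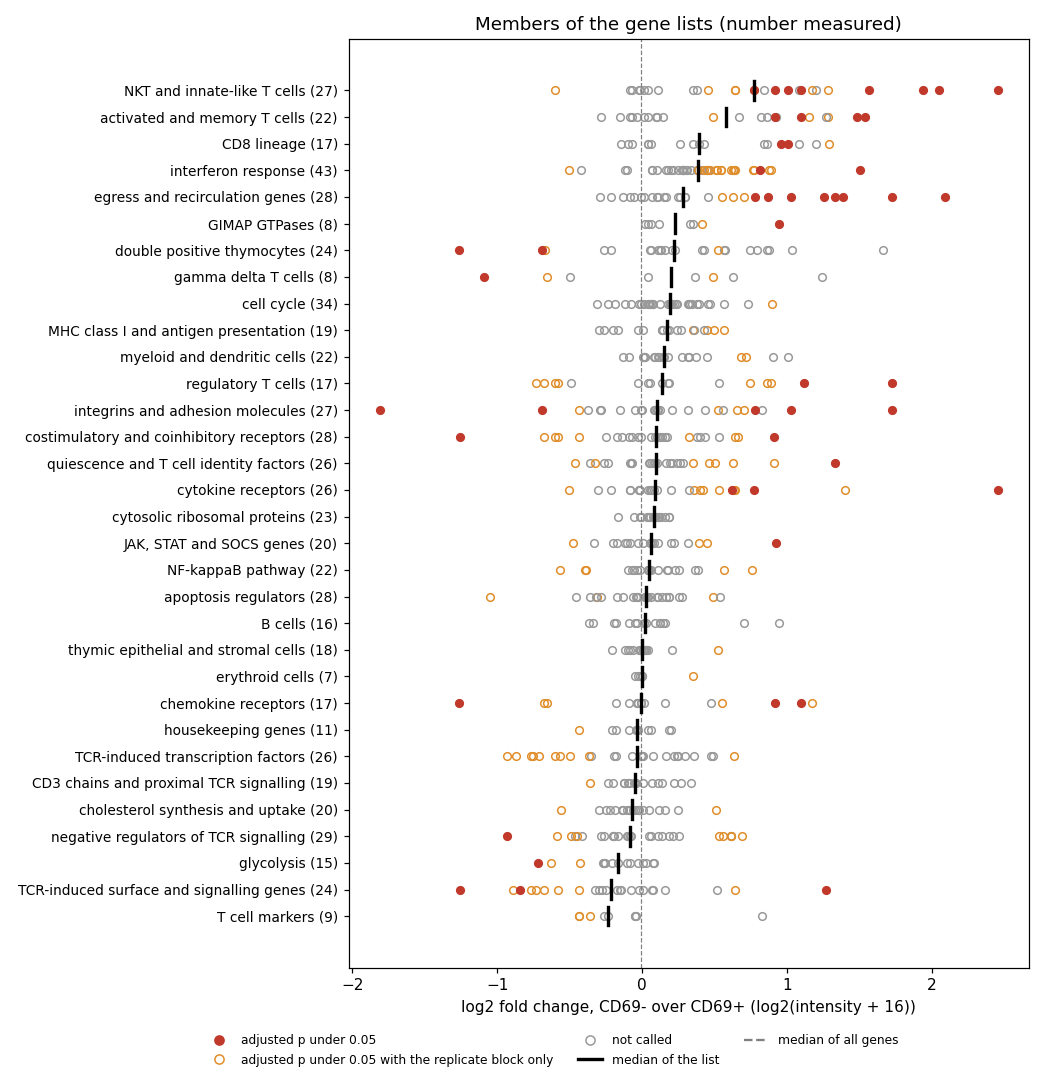
Log2 fold change, CD69- over CD69+ (x axis), of every measured member of 32 gene lists (y axis, number measured in brackets), with filled points called without the block, orange rings called only with it, grey rings not called, a black bar at the median of each list and a dashed line at the median of all genes. The lists of NKT and innate-like cells, activated and memory cells and interferon response have medians of 0.77, 0.58 and 0.38, and the CD8 lineage list has 0.39.

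Markers of cells outside the gate were read on every array. Of 24 markers of double positive thymocytes 19 lay above 0 and 2 were called lower, Ccr9 and Cd24a, which CD4 single positive cells also express. Cd24a, which thymocytes lose as they mature, had -0.69 ± 0.14 (SE, adjusted p = 0.0483), with 11 arrays that could end the call (adjusted p up to 0.143). Its means were 2494 ± 118 for SP1, 1605 ± 199.5 for SP2, 1932 ± 507.7 for SP3 and 799.9 ± 93.83 for SP4 (SD, n = 3). It stood at -0.079 in SP3 (adjusted p = 0.934 with the block) and fell by 1.23 from SP3 to SP4 (adjusted p = 0.0365). The gene's other probe sets were not called (adjusted p = 0.362 and 0.966, and 0.00216 and 0.0633 with the block). The list's median was 0.22 for the pooled comparison, 0.52 for SP3 against the CD69+ subsets, 0.75 for SP3 against SP2 alone and -0.97 for SP4 vs SP3, and its summed intensity ran from 9737 to 18570 on the CD69+ arrays and from 7939 to 24840 on the CD69- arrays, highest in SP3 replicate 1. The defining marker Cd8a ran from 34.7 to 1083 (median 177) on the CD69+ arrays and from 16.3 to 1838 (median 303) on the CD69- arrays, and Rag1 from 20 to 1258 (median 192) on the CD69+ arrays and from 123 to 2280 (median 660.5) on the CD69- arrays. Without SP3 replicate 1 the counts were 82 higher and 14 lower probe sets, and 112 and 29 with the block. Without that array, with the block, 11 egress, 12 NKT and 17 interferon genes were called higher, and 6 TCR-induced factors were called lower.

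The summed intensity of 16 B cell markers ran from 1316 to 7470 on the CD69+ arrays and from 2453 to 6645 on the CD69- arrays, with 0 members called by either test, and the defining marker Cd79a ran from 21.8 to 89.3 (median 32.7) on the CD69+ arrays and from 24.8 to 52 (median 30.6) on the CD69- arrays. Of 22 myeloid and dendritic markers 20 lay above 0, where 47.3% of all genes did, with a median of 0.15. Without the block 0 were called, and 2 were higher with it, Ctss and Siglech. Thymic epithelial and stromal (18 genes) and erythroid (7) markers had medians near 0. Of 17 CD8 lineage genes 2 were higher, Tbx21 and the protease gene Ctsw (0.96 ± 0.15, adjusted p = 0.0146, and 0.00106 with the block), whose call ended without SP3 replicate 2 (adjusted p = 0.0558). Of 17 regulatory T cell genes 2 were higher, Itgae and the ectoenzyme gene Nt5e (1.12 ± 0.18, adjusted p = 0.015, and 8.58e-05 with the block), and with the block Foxp3 was higher (0.86, adjusted p = 0.000413 with the block) while Ikzf2, Tnfrsf4, Tnfrsf18 and Gpr83 were lower. Of 8 γδ T cell genes, Etv5 was lower. The part of these cells in the results was not tested.

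**Figure D5:**
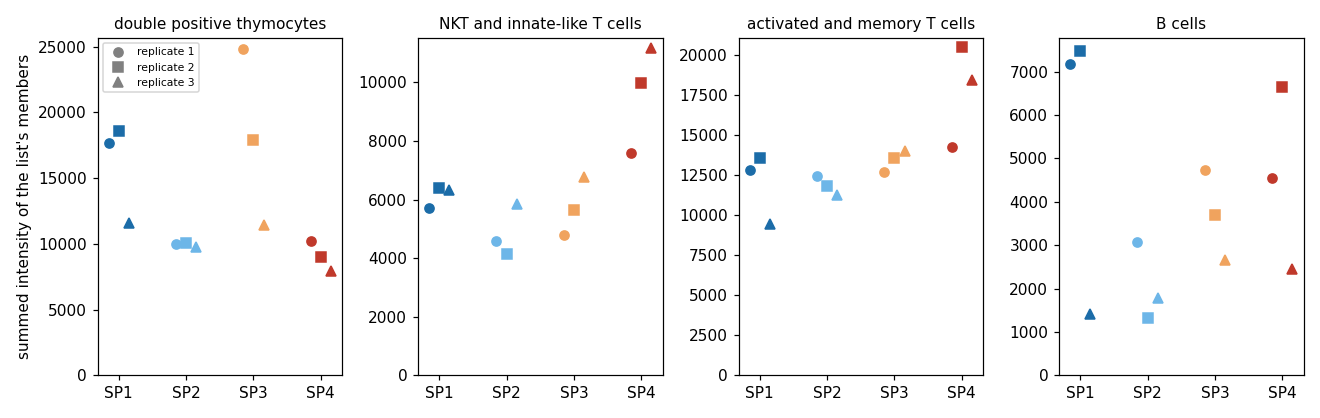
Summed linear intensity of the measured markers of 4 cell types, double positive, NKT, activated or memory T and B cells (y axis, from 0) on each array by subset (x axis), 1 point per array, shaped by replicate number. The double positive sum is highest in SP3 replicate 1, at 24840, the NKT sum is highest in SP4, and the B cell sum reaches 7470 in SP1 replicate 2.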

How the data were processed

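Per the labels and the study's methods, 12 Affymetrix Mouse Genome 430 2.0 arrays were scanned and the authors normalized them. The deposited table holds a linear intensity for each probe set and array. The methods name RMA and the processing notes MAS5, so the background correction is uncertain. Here 16 was added to each intensity before log2, which understates differences of dim probe sets. A mean per subset was fitted with limma 3.58.1 (R 4.3.3, eBayes with a trend, 8 residual degrees of freedom, 6 with the block), and p-values were adjusted by Benjamini-Hochberg over 45037 probe sets. The methods' SAM test was not run. The study's own column names, matched to these arrays by their values, give each replicate number 1 shared array repeat in all 4 subsets, so the number pairs the arrays. A gene was read by its probe set of highest mean. Annotation names 1 gene for 34945 probe sets, several for 932, and 9160 are unnamed here. The text names the 12 higher and 12 lower genes of largest fold with 1 sign in 3 of 3 replicate numbers, the sort markers and genes the study names, list members in order of fold, and the 8 higher and 8 lower genes of largest fold in SP3 against the CD69+ subsets with the block. A comparison of SP3 with SP2 alone was added after seeing the data. List members called only with the block, and marker genes given as checks, were named after their values were seen. Members and lists were chosen with earlier results of these data known. The fit without the block was run on simulated data with independent noise on each array and no replicate effect. That run therefore does not cover the replicate differences seen here. The number of arrays limits the precision.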

Additional observations from a re-analysis of the deposited data

Results flagged for a closer look

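In each group of 6 arrays, the highest or lowest array was set against the rest for 145 named genes, on the log2 scale, and its gap to the nearest array was divided by the range of the group. In 7 of 290 groups this ratio passed Dixon's critical value. Its nominal rate of about 1 in 20 holds for independent values of 1 distribution. Each group here mixes 2 subsets and 3 replicate numbers, so that rate does not apply and the count is a description. Among the CD69+ arrays, C1qtnf12 stood out with 945 in SP1 replicate 3 against 474 to 594 on the others (ratio 0.675), Il6ra with 424 in SP2 replicate 3 against 102 to 172 (0.648), and Scd2 with 2979 in SP2 replicate 2 against 1754 to 2043 (0.713). On the same arrays, Ifit3 was low in SP1 replicate 3, at 53.3 against 121 to 179 (0.657), and Capg in SP2 replicate 2, at 121 against 192 to 243 (0.657). Among the CD69- arrays, Il2ra was high in SP4 replicate 2, at 99.3 against 40.1 to 49.9 (0.777), and so was Slfn1, at 1268 against 476 to 672 (0.651).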

How the results depend on the processing

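With the replicate number as a block, 106 probe sets were higher and 30 lower, and as a random block 105 and 29. All 52 named genes called without the block were called with it. Counts moved by over 1.5 times with 1 mean per CD69 group (29 higher, 11 lower), an offset of 1 (34 lower) or 64 (44 and 9), SP3 alone as CD69- (4 and 2), SP4 alone (216 and 51), and SP2 alone as CD69+ (39 and 13). Leaving out 1 array gave 54 to 82 higher and 13 to 23 lower, and leaving out 1 replicate number 0 to 87 and 0 to 30. The cause was not tested. Settings chosen after seeing the data combined the block with fewer arrays: 88 to 137 higher and 28 to 31 lower without 1 replicate number, 32 and 15 with SP3 alone and 288 and 86 with SP4 alone. No called named gene changed sign, and 23 of 52 lost the call in at least 1 fit without 1 array and without the block. Single arrays other than SP3 replicate 1 were not left out with the block. With the block, all 52 kept the call without SP3 replicate 1, without replicate 1 and without replicate 2, and 48 kept it without replicate 3. Signs turned only for genes not called. With SP3 alone as CD69-, with and without the block, Il2ra read -0.16, Ccr7 -0.20, Il2rb -0.044, Icos -0.078, Ctla4 -0.058, Pdcd1 -0.19, Spry2 -0.17, Fasl -0.026 and Siglech -0.087, and Syt13 read -0.049 with SP4 alone. With SP2 alone as CD69+, Il2ra read -0.021 and Ccr7 -0.34. Without 1 array, Il2ra ran from -0.10 to 0.19 and Ccr7 from -0.10 to 0.14. Without 1 replicate number, with and without the block, Cd69 ran from -0.446 to 0.17, Il2ra from -0.25 to 0.2538 and Ccr7 from -0.053 to 0.056.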
